A study of Mus musculus with 10 samples.

Results

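The genes described here are 6 transcription factors of the developing mouse jaw: Meis1 and Meis2, Pbx2 and Pbx3, and Nr2f1 and Nr2f2. They were looked up by symbol among the 32285 genes of the count tables, and all 6 were found. The members were chosen by their measured levels across stages and cell lineages in these same counts, so those levels are given as a description, without a test. The cells came from wild type mice of the NMRI strain at 3 embryonic stages, as whole mandibles at E11.5 and as buds of the lower incisor at E14.5 and at E16.5, so that stage and dissected tissue cannot be told apart. The labels list 4, 4 and 2 samples for these stages. Each deposited table pools the samples of its stage, and a stage was therefore treated as 1 sample, without p-values. All intervals are 95% intervals that cover counting error only.

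Meis and Pbx proteins are homeodomain factors of the TALE class (named for an extra loop in the homeodomain), which bind DNA together and act as partners of Hox and other homeodomain proteins. In the face, which is largely free of Hox expression, they take part in patterning of neural crest derived mesenchyme. Nr2f1 and Nr2f2, also called COUP-TFI and COUP-TFII, are orphan nuclear receptors that set regional and cell type identity in many tissues, and Nr2f2 is known for its role in venous and lymphatic endothelium. Together with Barx1, the Nr2f genes are known for proximal domains of the jaw, while Hand and Alx genes mark its distal end.

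Cells were kept where they had 700 genes or more and mitochondrial counts of 20% or less. This left 6573 cells of the E11.5 table, 6091 of E14.5 and 4511 of E16.5. Their median depth was 5664, 3471 and 6260 UMIs (unique molecular identifiers, each a captured RNA molecule). Clusters were named from marker lists, which gave 6009 mesenchymal cells at E11.5, 4619 mesenchymal and 993 epithelial cells at E14.5, and 2529 mesenchymal and 1807 epithelial cells at E16.5. No E11.5 cluster could be named epithelium. A cluster of 306 cells at E11.5 carried both endothelial and immune markers and stayed unnamed. Only 46 barcodes occurred in more than 1 stage. Ddx3y, a gene of the Y chromosome, had 0 UMIs in the E11.5 table against 588 and 720 in the later tables, and the part of this difference in the stage comparisons was not tested. In bulk sums of this kind, fewer expressing cells and less RNA per cell cannot be told apart, so shares of cells are given beside some of the levels.

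In the mm10 assembly (GENCODE vM21) Meis1 lies at chr11:18879817-19018985, Meis2 at chr2:115863064-116065839, Pbx3 at chr2:34171457-34373142, Nr2f1 at chr13:78188973-78199757 and Nr2f2 at chr7:70351944-70366735, all on the minus strand. Pbx2 lies at chr17:34591266-34597400 on the plus strand. Exons of Pbx2 overlap those of Gpsm3 on the same strand, so its counts are less certain. Exons of Meis1, Nr2f1 and Nr2f2 overlap an antisense gene each (Gm16140, A830082K12Rik and B130024G19Rik), and the sources used here do not state how strand was used in counting. The sequences just before the start of Meis1 and of Nr2f2 are shown, because these members have their highest levels in different clusters of E16.5 epithelium, as described later. Each is the 250 bases before the RefSeq start in GRCm38.p6, read 5′ to 3′ on the minus strand, from chr11:19018970-19019219 for Meis1 and chr7:70366747-70366996 for Nr2f2.
Meis1: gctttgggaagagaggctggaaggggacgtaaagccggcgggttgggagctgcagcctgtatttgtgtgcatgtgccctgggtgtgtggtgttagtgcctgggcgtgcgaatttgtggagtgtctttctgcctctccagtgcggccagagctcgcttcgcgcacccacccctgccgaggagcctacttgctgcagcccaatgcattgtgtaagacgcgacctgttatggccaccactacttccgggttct
Nr2f2: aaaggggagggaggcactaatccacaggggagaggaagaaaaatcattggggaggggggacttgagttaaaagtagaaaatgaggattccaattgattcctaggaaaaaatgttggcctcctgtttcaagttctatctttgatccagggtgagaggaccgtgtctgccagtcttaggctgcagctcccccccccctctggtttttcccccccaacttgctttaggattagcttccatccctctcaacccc

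Capitals would mark the letters TGACAG (bound by Meis and related factors), TGATTGAC (bound by Pbx with a partner) or AGGTCA (the core of nuclear receptor sites), searched on both strands, but neither window holds any of them. RefSeq windows were found for 5 of the 6 members, and 0 of their 6 windows held one of these motifs. Among 32851 promoter windows of the same length, 15.9%, 0.691% and 14% held TGACAG, TGATTGAC and AGGTCA. A TGATTGAC can overlap a TGACAG, since the former ends with the letters that open the latter.

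**Figure D1:**
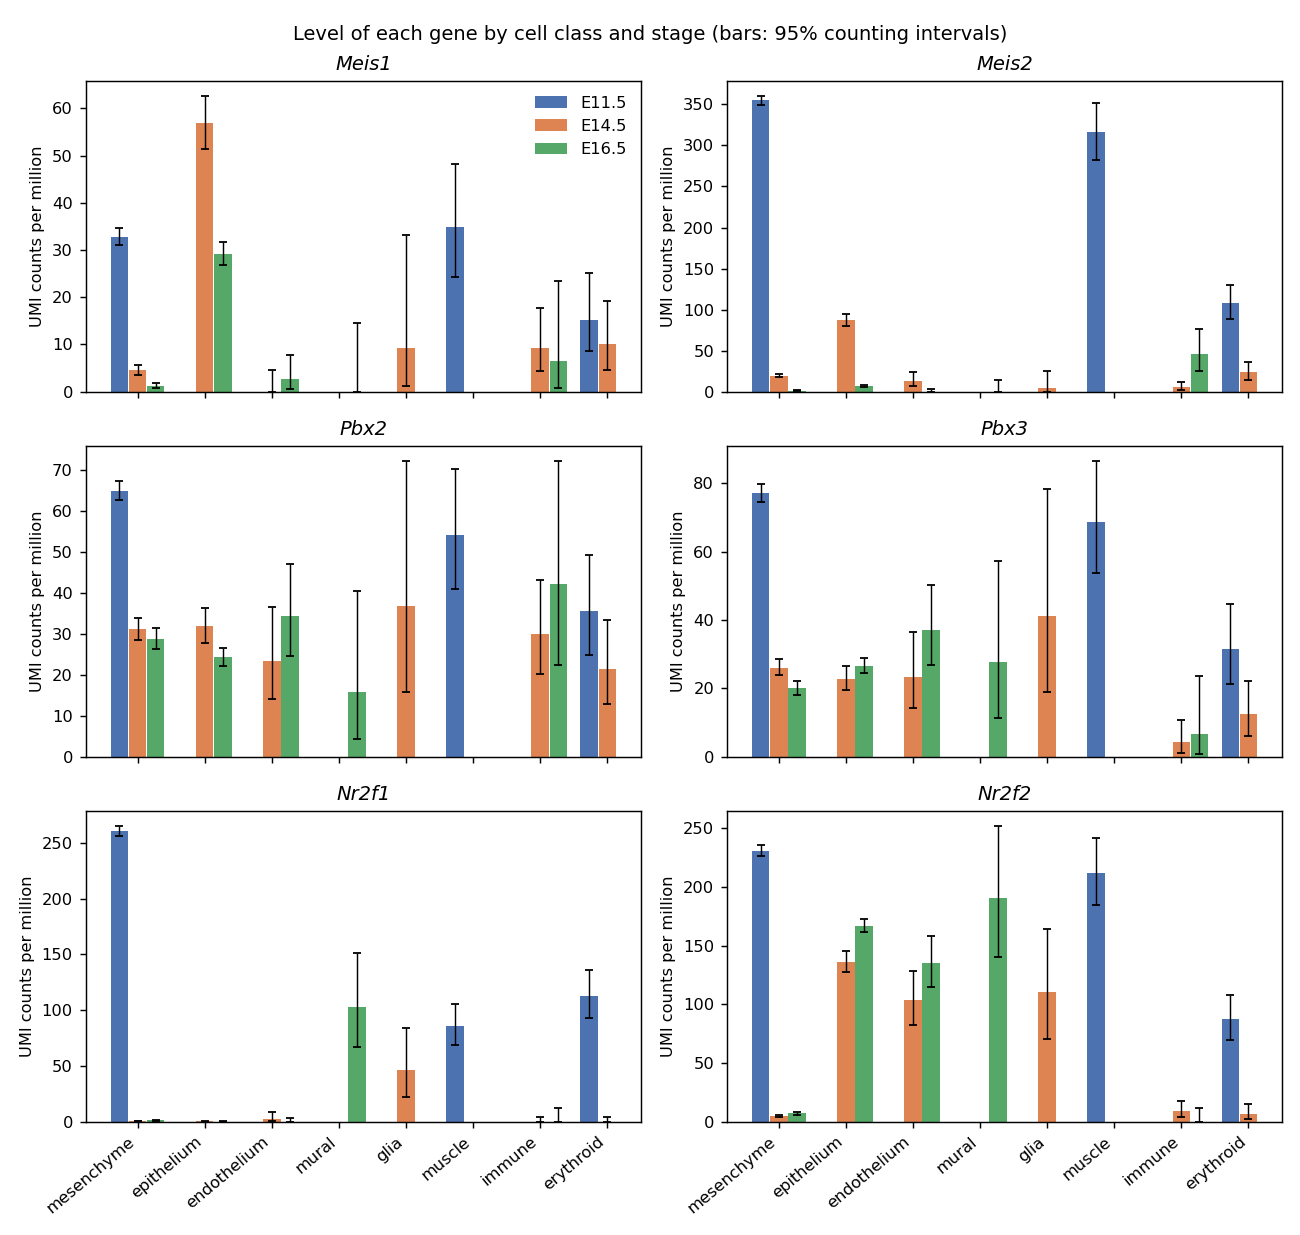
Level of each of the 6 genes in CPM (UMIs per 1000000 UMIs of a class; y axis, from 0) by cell class (x axis) and stage (colours); lines are 95% counting intervals, and a class without a bar and line at a stage held no named cluster there. Meis2, Nr2f1 and Nr2f2 stood at 355, 260.4 and 231 CPM in E11.5 mesenchyme, and in epithelium Nr2f2 stood at 136 and 167 at the later stages.

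Among the cell classes, Meis2 was highest in E11.5 mesenchyme, and it was low in both mesenchyme and epithelium by E16.5. Its levels are in CPM, meaning the UMIs of a gene per 1000000 UMIs, summed over the cells of a class. In mesenchyme its level was 355 CPM (interval 349 to 360.5) at E11.5, 19.5 CPM (17.6 to 21.7) at E14.5 and 1.29 CPM (0.826 to 1.92) at E16.5. In epithelium it was 87.1 CPM (80.3 to 94.3) at E14.5 and 6.65 CPM (5.56 to 7.89) at E16.5. At each later stage the epithelial level was thus the higher of the pair, and both were below E11.5 mesenchyme. E11.5 had no epithelial class to compare, and 13 of its cells with epithelial markers, described below, had 1115 CPM (976 to 1268). The E11.5 muscle cells (119 cells) had 316 CPM (283 to 352), but 40 of their 327 Meis2 UMIs lay in 1 cell, and the mean of the cells' own levels was 216 CPM against 369 CPM in mesenchyme. Cells with at least 2000 UMIs were also thinned at random to that depth, and cells with fewer were left out. Meis2 was then found in 27.6% of muscle cells (19.7 to 36.7) against 40.7% of mesenchymal cells (39.4 to 42.1). Muscle cells also had 176 CPM of epithelial markers, whose part in this was not tested. In the 27 immune cells of E16.5 there were 14 UMIs of Meis2, of which 11 lay in 1 cell.

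Meis1, the paralogue of Meis2, had its highest class level in E14.5 epithelium, and it was higher in epithelium than in mesenchyme at E14.5 and E16.5. It stood at 56.8 CPM (51.4 to 62.6) in E14.5 epithelium and at 29.2 CPM (26.9 to 31.7) in E16.5 epithelium. Its mesenchymal levels were 32.8 CPM (31.1 to 34.6) at E11.5, 4.54 CPM (3.60 to 5.64) at E14.5 and 1.29 CPM (0.826 to 1.92) at E16.5. In the order of all classes, E14.5 epithelium came first, and the next classes, E11.5 muscle (34.8 CPM), E11.5 mesenchyme and E16.5 epithelium, each overlapped the one above it except for the step from E14.5 epithelium to muscle. The muscle level rested on 36 UMIs, and the mean of the cells' own levels was 23.1 CPM there against 37.2 CPM in E11.5 mesenchyme. Of all Meis1 UMIs, epithelial cells held 79.8% at E14.5 and 95.2% at E16.5, while they made up 16.3% and 40.1% of the cells. Their share of the UMIs of all genes was larger than that of cells, with 7025408 of 27765839 at E14.5 and 19705294 of 40024102 at E16.5.

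Both Pbx genes differed by less than 2-fold between mesenchyme and epithelium of a stage, and Pbx2 varied the least of the members over the larger classes. Pbx2 ranged from 21.3 to 65.0 CPM over the 12 classes with at least 50 cells, with 65.0 CPM (62.6 to 67.5) in E11.5 mesenchyme, 31.1 CPM (28.6 to 33.8) in E14.5 mesenchyme and 31.9 CPM (27.8 to 36.3) in E14.5 epithelium. At E16.5 it was 28.8 CPM (26.4 to 31.3) in mesenchyme and 24.4 CPM (22.2 to 26.6) in epithelium. The log2 ratio of mesenchyme over epithelium for Pbx2 had an interval of -0.20 to 0.15 at E14.5 and of 0.04 to 0.31 at E16.5. Pbx3 stood at 77.1 CPM (74.5 to 79.7) in E11.5 mesenchyme. It had 26.05 CPM (23.7 to 28.5) in mesenchyme and 22.8 CPM (19.4 to 26.6) in epithelium at E14.5, and 19.97 CPM (18.0 to 22.1) and 26.5 CPM (24.3 to 28.9) at E16.5. The lowest class for Pbx3 was E14.5 immune cells, with 4 UMIs in 128 cells (4.15 CPM).

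Nr2f1 and Nr2f2 were close in E11.5 mesenchyme and far apart in epithelium of the later stages. Nr2f1 had 260.4 CPM (256 to 265) in E11.5 mesenchyme, and then 0.448 CPM (8 UMIs) at E14.5 and 1.13 CPM (21 UMIs) at E16.5. In epithelium there was 1 UMI of Nr2f1 among 993 cells at E14.5 and 0 among 1807 cells at E16.5, where a count of 0 allows up to 0.152 CPM. After E11.5 the gene was found at higher levels in small classes, with 45.9 CPM (22.0 to 84.3) in 44 glial cells of E14.5 and 103 CPM (67.3 to 151) in 26 mural cells of E16.5. The 26 UMIs of the mural cells were 55.3% of all Nr2f1 UMIs of that stage.

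Nr2f2 stood at 231 CPM (226 to 235) in E11.5 mesenchyme, 4.82 CPM (3.85 to 5.95) in E14.5 mesenchyme and 7.14 CPM (5.98 to 8.46) in E16.5 mesenchyme. Epithelium had 136 CPM (128 to 145) at E14.5 and 167 CPM (161 to 173) at E16.5, and held 82.1% and 90.8% of the Nr2f2 UMIs of these stages. Endothelium, where the gene is known to act, had 103 CPM (82.4 to 128) at E14.5 and 135 CPM (115 to 158) at E16.5. Glial cells of E14.5 (110.1 CPM) and mural cells of E16.5 (190.2 CPM) were in the same range. A UMI of Nr2f2 was found in 35.3% of E14.5 epithelial cells (median 4257 UMIs) and in 45.7% of those of E16.5 (median 6939 UMIs), against 3.91% of E14.5 immune cells at a median of 7253.5 UMIs.

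Markers of other lineages were detected in each class, and their levels are set beside the low values of the members. In E11.5 erythroid cells the summed level of the 10 mesenchymal markers was 30.0% of that in mesenchyme, and the members were at 30.3% (Meis2) to 54.6% (Pbx2) of their mesenchymal levels. The part of mesenchymal RNA in these erythroid levels was not tested. In E14.5 mesenchyme the 10 epithelial markers summed to 3.87% of their epithelial level, and Nr2f2 stood at 3.54%, Meis1 at 7.99% and Meis2 at 22.4% of theirs. The same shares at E16.5 were 6.86% for the markers, 4.27% for Nr2f2, 4.41% for Meis1 and 19.4% for Meis2. Mesenchymal Nr2f2 at both stages, and Meis1 at E16.5, thus had shares below that of the summed epithelial markers. These shares were given no interval. The part of epithelial RNA in these mesenchymal levels was not tested.

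Mesenchyme and epithelium of the same buds were compared by the log2 ratio of their levels, with 10 CPM added to each. A ratio of 1 or more in size (2-fold) was counted among genes with at least 50 UMIs in both groups together. At E14.5, Nr2f2 was lower in mesenchyme by -3.30 (interval -3.42 to -3.17), Meis1 by -2.20 (-2.34 to -2.05) and Meis2 by -1.72 (-1.86 to -1.57). Pbx2 at -0.03 and Pbx3 at 0.14 had intervals that include 0. So 3 of the 5 members with enough counts were lower by 2-fold and 0 were higher, where 3.51% of 11553 genes were lower and 4.02% higher. At E16.5 the ratio was -3.37 (-3.48 to -3.25) for Nr2f2 and -1.80 (-1.87 to -1.70) for Meis1, and Meis2 at -0.56 did not reach the fold. The added 10 CPM decides this for Meis2, since its level in mesenchyme was 5.16-fold below that in epithelium without it, and its ratio was -1.74 with 1 CPM added. With 10 CPM that made 2 of 5 members lower and 0 higher, against 3.21% and 4.07% of 12713 genes. Since the members were chosen on such levels, nothing is read from these counts.

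Between E11.5 and E14.5 mesenchyme, 5 of the 6 members were lower by 2-fold and 0 were higher, where 1.91% of 12779 genes were lower and 2.8% higher. The log2 ratio of E14.5 over E11.5 was -4.69 (-4.73 to -4.63) for Nr2f1, -4.02 (-4.12 to -3.91) for Nr2f2, -3.63 (-3.73 to -3.52) for Meis2, -1.56 (-1.66 to -1.44) for Meis1 and -1.27 (-1.38 to -1.17) for Pbx3. Pbx2 was at -0.87, and at -1.04 with 1 CPM added. The median ratio over all genes was -0.09. Thinning kept 5413 of 6009 mesenchymal cells at E11.5 and 3936 of 4619 at E14.5. In thinned cells, Nr2f1 was found in 32.6% of E11.5 and 0.127% of E14.5 mesenchymal cells. These shares were 29.1% and 0.864% for Nr2f2, 40.7% and 3.61% for Meis2, 5.95% and 1.17% for Meis1, and 13.5% and 4.45% for Pbx3. Beside this, 6 of 8 stress genes, such as Fos and Hspa1a, were higher by 2-fold at E14.5. Dissection and stage changed with this step, and the part of either was not tested.

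From E14.5 to E16.5, Meis2 was past 2-fold in both tissues with 10 CPM added. Its log2 ratio of E16.5 over E14.5 was -1.39 (-1.47 to -1.28) in mesenchyme and -2.54 (-2.68 to -2.40) in epithelium. This made 1 of 5 members lower in each tissue and 0 higher, while 0.376% of 12243 genes were lower and 1.21% higher in mesenchyme, and 0.299% of 11718 genes were lower and 1.22% higher in epithelium. In epithelium Meis1 was at -0.77, Pbx2 at -0.29, Pbx3 at 0.16 and Nr2f2 at 0.28, and in mesenchyme Meis1 was at -0.36 and Nr2f2 at 0.21. The mesenchymal level of Meis1 was 3.52-fold lower at E16.5 without the added value, and its ratio was -1.27 with 1 CPM added. Of the 612 Meis2 UMIs of E14.5 epithelium, 544 lay in cluster 3, described below. In E14.5 mesenchyme 131 and 125 of 349 lay in clusters 4 and 5. In thinned cells, Meis2 was found in 9.67% of E14.5 and 1.70% of E16.5 epithelial cells, and in 3.61% and 0.201% of mesenchymal cells. The part of fewer cells of these clusters in the Meis2 step was not tested.

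Meis3, Pbx4 and Nr2f6, further genes of these families, were not past 2-fold in any of the 5 comparisons with 10 CPM added. Meis3 stood at 4.94 CPM (4.30 to 5.64), 10.4 CPM (8.97 to 12.03) and 10.8 CPM (9.35 to 12.4) in mesenchyme of the successive stages. Without the added value it was 3.33-fold higher in mesenchyme than in epithelium at E14.5, 3.32-fold higher at E16.5, and 2.11-fold higher in E14.5 than in E11.5 mesenchyme. Nr2f6 stood at 26.3 CPM (24.8 to 27.9), 24.1 CPM (21.9 to 26.5) and 23.03 CPM (20.9 to 25.3) in mesenchyme of these stages. Among 9 TALE partners, Tgif1, a TALE repressor, was lower at E14.5 both in mesenchyme against epithelium (-1.09) and against E11.5 mesenchyme (-1.07). Zfp503, a zinc finger repressor, was lower by -1.28 in that stage step. Of the 9 proximal jaw genes, 4 were lower in this step (Barx1 -4.68, Lhx6 -1.79, Dlx1 -1.50 and Emx2 -1.34) and 1 was higher, and of the 10 distal genes Hand1 (-1.26) and Dlx6 (-1.46) were lower and Alx1 higher (1.97). Over all genes with enough counts, 1.91% were lower and 2.8% higher by 2-fold in this step. Among 13 nuclear receptor partners, Rarg, a retinoic acid receptor, was higher in mesenchyme than in epithelium at E14.5 (1.13) and E16.5 (1.37), and Bcl11a, which binds Nr2f proteins, was lower in mesenchyme at E16.5 (-1.20). In mesenchyme against epithelium, 3.51% of all genes were lower and 4.02% higher at E14.5, and 3.21% and 4.07% at E16.5.

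**Figure D2:**
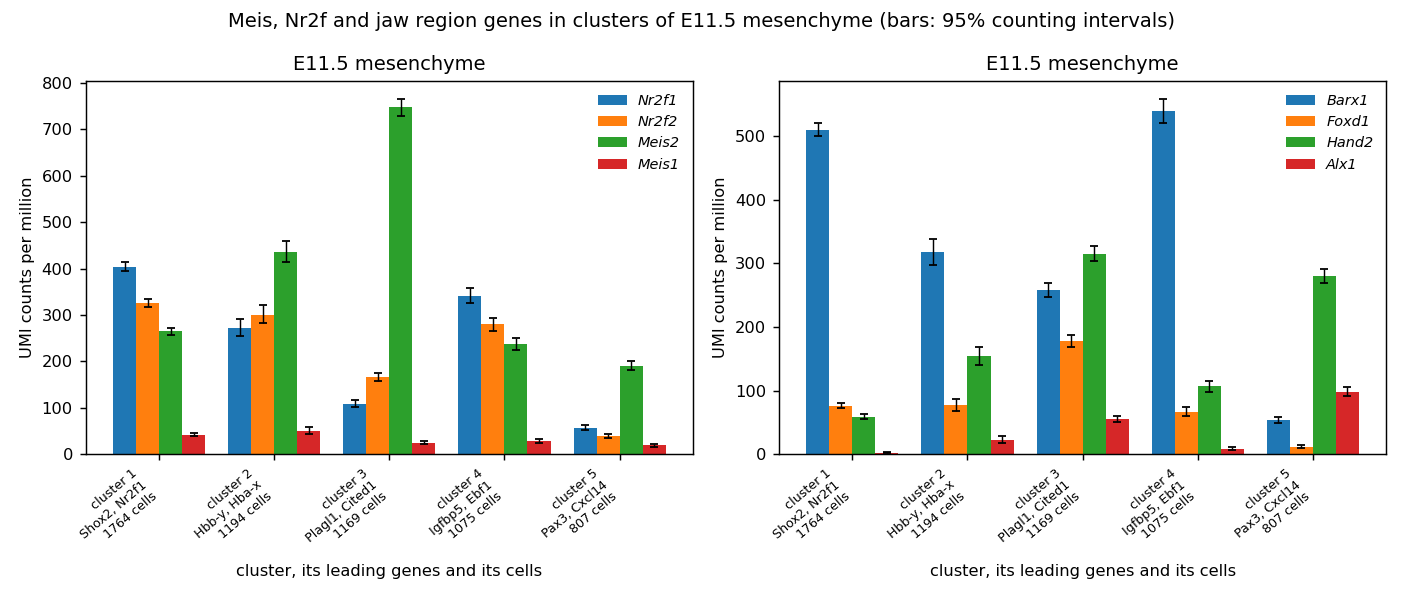
Levels in CPM (y axis, from 0) in the 5 clusters of E11.5 mesenchyme (x axis, with leading genes and cells), of the Meis and Nr2f genes on the left and of 4 jaw region genes on the right; lines are 95% counting intervals. Nr2f1 and Nr2f2 are lowest in cluster 5, where Alx1 is highest, and Meis2 is highest in cluster 3, where Foxd1 and Hand2 are highest.

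Within E11.5 mesenchyme Nr2f1, Nr2f2 and Meis2 differed between clusters of cells, whose position in the jaw was not measured. The cells were clustered again without the members and their paralogues among the variable genes, which gave 5 clusters. A830082K12Rik, whose exons overlap those of Nr2f1, was not among the genes left out, and it was a leading gene of cluster 4. Nr2f1 had 403 CPM (394 to 413) in cluster 1 and 342 CPM (327 to 357) in cluster 4, the clusters with the highest Barx1 (510 and 539 CPM), a homeobox gene of proximal jaw mesenchyme. It had 109 CPM (102 to 116) in cluster 3 and 56.5 CPM (51.5 to 61.8) in cluster 5, which was led by Pax3 and Msx1 and had the highest Alx1 (98.4 CPM) and Hand1 (61.0 CPM). Nr2f2 had the same order among these 4 clusters, with 325 CPM in cluster 1, 280 CPM in cluster 4, 167 CPM in cluster 3 and 39.2 CPM in cluster 5. Meis2 had another order. It stood at 747 CPM (729 to 766) in cluster 3, which was led by Plagl1 and Cited1 and had the highest Foxd1 (178 CPM) and Hand2 (315 CPM), and at 265, 237 and 191 CPM in clusters 1, 4 and 5. Cluster 2 was led by globin and mitochondrial genes at a median of 2062 UMIs, and its members' levels lay between those of the other clusters for Nr2f1 (272 CPM), Nr2f2 (301 CPM) and Meis2 (436 CPM). Pbx2 was between 56.6 and 70.7 CPM in all 5 clusters, and Pbx3 between 52.1 CPM in cluster 3 and 92.0 CPM in cluster 2.

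Single cells were compared in the same way. Cells with at least 2000 UMIs were thinned at random to that depth. This kept 5413 of the 6009 cells, but only 633 of the 1194 cells of cluster 2. The share of thinned cells with a UMI of a member was compared between cells with and without a UMI of a region gene. Of the 19 distal and proximal jaw genes, 16 had intervals apart for Nr2f1 (with more Nr2f1 for 6 and less for 10), where 6.23% of all genes found in at least 20 cells had. For Nr2f2 there were 16 (more for 5, less for 11) against 5.5% of all genes, and for Meis2 12 (more for 5, less for 7) against 6.55%. Meis1 had 4 (more for 1, less for 3) against 2.72%, Pbx3 had 2 (both less) against 1.74%, and Pbx2 had 0 against 1.42%. The lists of jaw genes were chosen with earlier results of these data known, and these counts pool both lists, so they are a description. Nr2f1 was found in 42.0% of Barx1 cells (39.8 to 44.2) against 26.9% of cells without Barx1, and in 5.86% of Alx1 cells (3.45 to 9.22) against 34.1%. Nr2f2 was found in 39.5% of Barx1 cells against 22.9%, and in 4.48% of Alx1 cells (2.41 to 7.54) against 30.5%. Dlx1 and Dlx2, homeobox genes listed here as proximal, went with more Nr2f1, at 47.0% and 46.6% against 31.5% each. Dlx6, listed as distal, did so too, at 40.1% against 31.7%. Lhx8, listed here as proximal, went with less Nr2f1 (23.6% against 33.7%) and less Nr2f2 (16.7% against 30.7%).

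Beside Foxd1, listed here as proximal, Meis2 was found in 60.1% of cells (56.2 to 63.8) against 38.0% of the others. Beside Hand2, listed as distal, it was found in 51.1% against 37.4%. It was found in 30.1% of Msx1 cells (27.7 to 32.7) against 44.2%, although Msx1 and Hand2 are both distal genes. Barx1 cells had Meis2 in 34.3% against 44.6%.

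Between members of E11.5 mesenchyme, 14 of 15 pairs were found together more often before thinning, and 4 afterwards. Among pairs of any gene with a member, intervals were apart for 76.3% before thinning and 4.03% afterwards. Nr2f2 was found in 46.4% of thinned Nr2f1 cells (44.0 to 48.7) against 20.8% of the others (19.5 to 22.2). Meis2 was found in 61.5% of Meis1 cells (55.9 to 66.8) against 39.4%, Nr2f1 in 43.5% of Meis1 cells against 31.9%, and Pbx3 in 20.2% of Meis1 cells against 13.1%. Meis2 and Nr2f1 did not part, with Nr2f1 in 31.2% of Meis2 cells (29.3 to 33.2) and in 33.5% of the others (31.9 to 35.2).

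At E11.5, 13 cells had a UMI of at least 3 of the 10 epithelial markers. They had 1115 CPM of Meis2 (976 to 1268) against 334 CPM in the other 6560 cells, and 100.5 CPM of Meis1 (62.2 to 154) against 31.7 CPM. Nr2f1 had 33.5 CPM (7 UMIs) in them against 248 CPM, and Nr2f2 225 CPM (165 to 299) against 224 CPM. These cells were chosen by a count of markers, 16 further cells had exactly 1 marker fewer, and Twist1, a mesenchymal gene, was still at 90.9 CPM.

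In E14.5 mesenchyme Meis2 was unevenly spread among 6 clusters. It had 77.3 CPM in cluster 4 (led by Ccnd1 and Pitx1) and 89.7 CPM in cluster 5 (led by Osr1 and Ebf2), against 1.72 to 16.3 CPM in the other 4. Meis1 had 27.3 CPM in cluster 5 and at most 6.49 CPM elsewhere. By E16.5 neither gene passed 5.16 CPM in any of the 5 mesenchymal clusters.

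**Figure D3:**
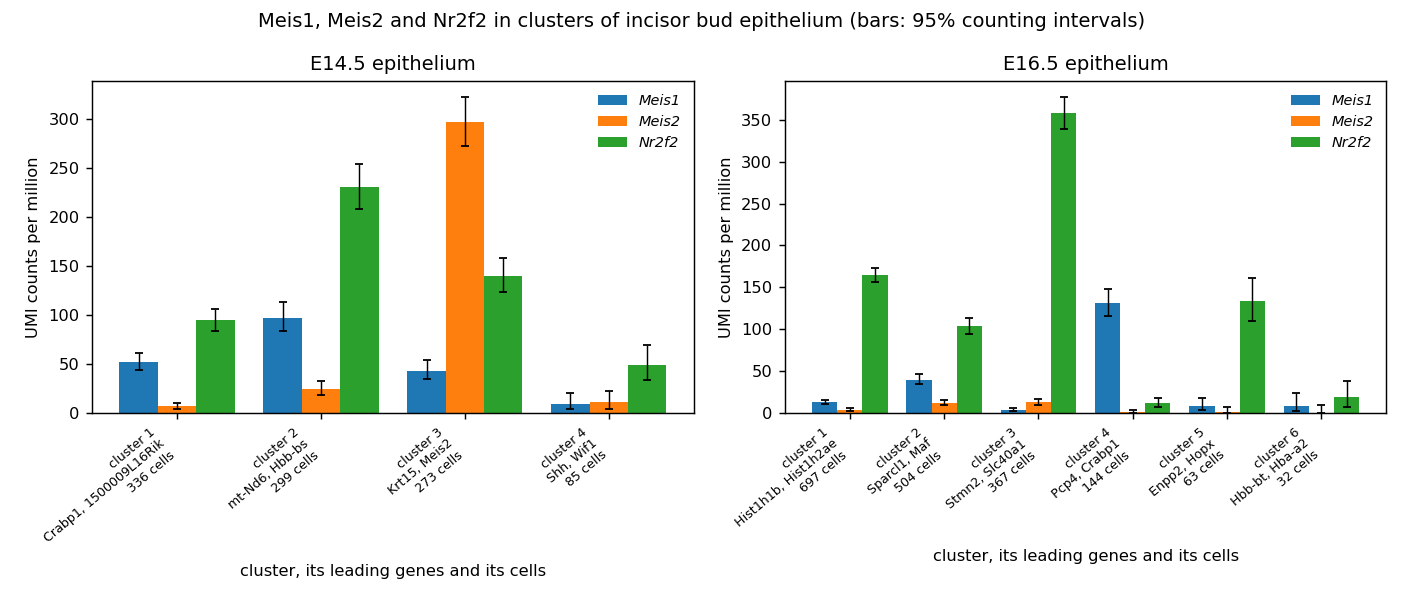
Levels of Meis1, Meis2 and Nr2f2 in CPM (y axis, from 0) in the epithelial clusters of E14.5 and E16.5 (x axis, with leading genes and cells); lines are 95% counting intervals. Meis2 is high in cluster 3 of E14.5, and at E16.5 Meis1 is highest in cluster 4, where Nr2f2 is lowest, and Nr2f2 is highest in cluster 3, where Meis1 is lowest.

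In E14.5 epithelium Meis2 was largely held by 1 of 4 clusters. Cluster 3 (273 cells), led by Krt15 and Igfbp5, had 297 CPM of Meis2 (272 to 323), while clusters 1, 2 and 4 had 6.48, 24.4 and 10.8 CPM. Krt15, a keratin of basal cells, had 179 CPM in cluster 3 and at most 6.24 CPM elsewhere. Meis1 had 51.4 CPM in cluster 1, led by Crabp1 and 1500009L16Rik, 97.1 CPM in cluster 2 and 43.1 CPM in cluster 3. In cluster 4, led by Shh, a hedgehog ligand made at signalling centres of the tooth bud, Meis1 had 9.22 CPM (3.38 to 20.1). Nr2f2 was lowest in this Shh cluster as well, at 49.2 CPM (33.6 to 69.4), and stood at 94.3, 230.5 and 140.2 CPM in clusters 1, 2 and 3. Cluster 2 was led by mitochondrial and globin genes, with 5.38% mitochondrial counts against 1.86% to 2.86% in the others, and the part of this in its high Meis1 and Nr2f2 was not tested.

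In E16.5 epithelium Meis1 and Nr2f2 were highest in different clusters. Cluster 4 (144 cells), led by Pcp4 and Crabp1 and with the highest Sox2 (90.5 CPM), a factor of dental epithelial progenitors, had 131 CPM of Meis1 (116 to 148) and 11.6 CPM of Nr2f2 (7.44 to 17.3). Cluster 3 (367 cells), which had the highest Igfbpl1 (488 CPM) and Shh (427 CPM), had 3.51 CPM of Meis1 (1.87 to 6.001) and 358 CPM of Nr2f2 (339 to 377). The remaining clusters lay between them, with Meis1 at 13.1, 39.5 and 8.64 CPM and Nr2f2 at 164, 103 and 133 CPM in clusters 1, 2 and 5, and clusters 1 and 2 held both genes. In the counts as deposited, Nr2f2 was found in 44.4% of Meis1 cells and in 45.9% of the others. Meis2 did not pass 12.4 CPM in any cluster. Cluster 6 held 32 cells with 460912 CPM of erythroid marker genes, mostly globins. Without it the log2 ratios of all 6 members that use E16.5 epithelium stayed within their intervals. Pbx2 and Pbx3 had 18.6 to 31.0 CPM and 25.1 to 30.9 CPM in clusters 1 to 5.

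Pairs of members in epithelial cells were mostly found together in the counts as deposited, and cells with a UMI of Meis1 were deeper. At E14.5 they had a median of 8117 UMIs against 3798.5 in those without. Of the 10 pairs without Nr2f1, 8 had intervals apart at E14.5 and 8 at E16.5, all with more co-detection, while 69.4% and 79.4% of pairs of any gene with a member had intervals apart in either direction. Thinning to 2000 UMIs kept 838 of 993 and 1644 of 1807 cells, and 1 pair then had intervals apart at each stage, against 1.73% and 1.89% of pairs of any gene with a member. The pair of E14.5 was not among the 8 seen as deposited, and it lay the other way. At E14.5, Nr2f2 was found in 4 of 62 Meis1 cells, 6.45% (1.79 to 15.7), against 20.5% (17.7 to 23.5) of cells without Meis1 (4.69% against 20.8% in another random draw), whereas the unthinned shares had been 37.9% and 34.7%. At E16.5 the pair had been apart as deposited too, and Pbx3 was found in 15.3% of Meis1 cells (7.22 to 26.99) against 4.04%, but another random draw gave 7.04% against 4.77%. Nr2f2 at E16.5 was found in 18.6% of thinned Meis1 cells (9.69 to 30.9) and in 24.0% of the others (21.9 to 26.2), and the intervals overlapped. Meis2 and Nr2f2 also overlapped, with Nr2f2 in 12.3% of Meis2 cells and 20.2% of the others at E14.5, and in 32.1% and 23.6% at E16.5.

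**Figure D4:**
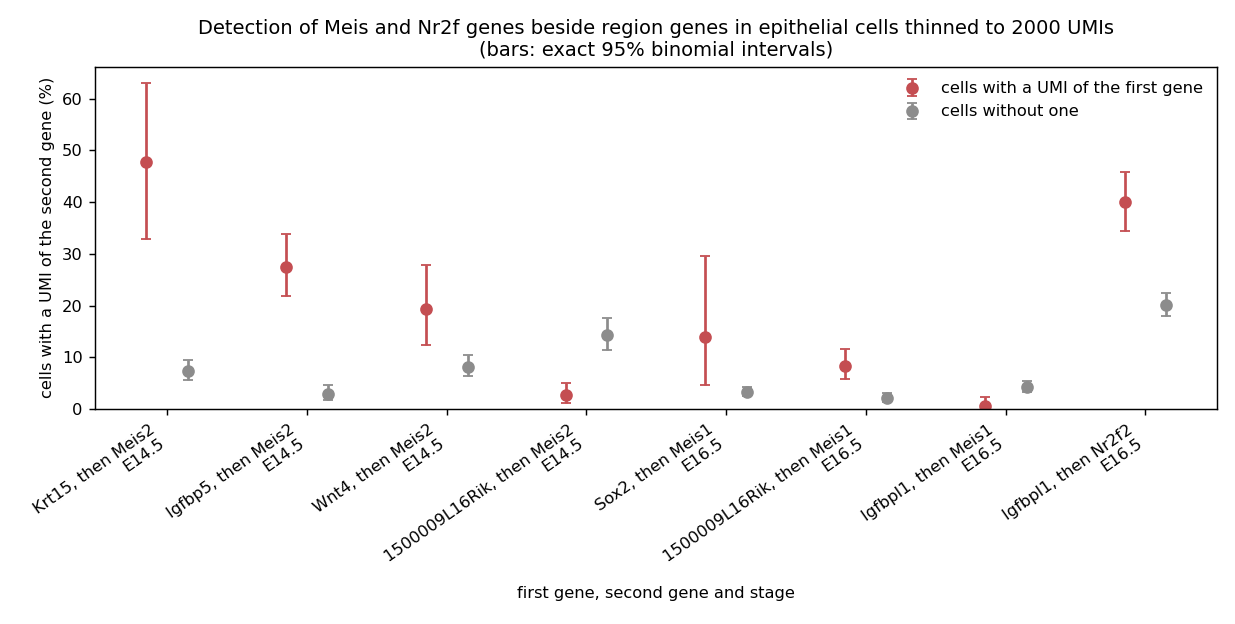
Share of epithelial cells with a UMI of a Meis or Nr2f gene (y axis, percent, from 0) among cells with (red) and without (grey) a UMI of a region gene, after thinning to 2000 UMIs; lines are exact 95% binomial intervals. The 8 pairs were picked after their values were seen, for intervals that do not overlap, and Krt15 with Meis2 at E14.5 shows the widest gap, 47.8% against 7.45%.

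Members were also set beside genes listed here for regions of dental epithelium, after thinning. This list was chosen with earlier results of these data known. Krt15, Igfbp5, 1500009L16Rik and Igfbpl1 were also leading genes of clusters of these same cells. The counts of region genes at both stages are therefore a description, and nothing is read from them. At E14.5, of the 11 region genes found in at least 20 cells, 5 had intervals apart for Meis2 (more Meis2 for 3, less for 2), where 2.25% of all such genes had. There was 1 for each of Meis1, Nr2f2 and Pbx3, with more of the member, against 2.05%, 2.73% and 1.08% of all genes, and 0 for Pbx2 against 0.519%. Whether members differed in these counts was not tested. Meis2 was found in 47.8% of Krt15 cells (32.9 to 63.1) against 7.45% of the others, in 27.5% of Igfbp5 cells (21.8 to 33.8) against 2.96%, and in 19.3% of Wnt4 cells (12.3 to 27.9) against 8.23%. It was found in 2.69% of 1500009L16Rik cells (1.24 to 5.05) against 14.3%, and in 1 of 70 Shh cells (1.43%) against 10.4%. Meis1 went the other way for 1500009L16Rik, in 11.1% of these cells (7.92 to 14.9) against 4.96%.

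At E16.5, of 12 region genes, 5 had intervals apart for Meis1 (more for 3, less for 2) against 1.9% of all genes, and 4 for Nr2f2 (more for 3, less for 1) against 4.75%. There was 1 for Meis2, with more of it, against 0.929%, and 0 for Pbx2 and Pbx3 against 0.758% and 1.12%. Meis1 was found in 13.9% of Sox2 cells (5 of 36, 4.67 to 29.5) against 3.36% of the others and in 8.42% of 1500009L16Rik cells (5.87 to 11.6) against 2.08%. It was found in 0.673% of Igfbpl1 cells (2 of 297) against 4.23%, and in 0.692% of Shh cells (2 of 289) against 4.21%. Nr2f2 was found in 40.1% of Igfbpl1 cells (34.5 to 45.9) against 20.2%, and in 18.1% of 1500009L16Rik cells (14.4 to 22.3) against 25.6%. Meis1 and Nr2f2 thus stood on opposite sides of both Igfbpl1 and 1500009L16Rik.

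Genes with the pattern most like each member were found by Pearson's r of log2(CPM + 10) over the 12 classes with at least 50 cells, among 4805 genes. The points share tables and depth, so r is a description. For Nr2f1 the first were Barx1 (r = 0.993), Cited1 (0.984) and Car14 (0.948). For Meis1 they were Sinhcaf (0.925) and Pitx1 (0.924), for Meis2 Col2a1 (0.943), for Pbx2 Mcm3 (0.942), for Pbx3 Tcf3 (0.956) and for Nr2f2 Tle3 (0.934). Over the 10 epithelial clusters of both stages, with 4270 genes, they were Chl1 and Pcyt1b (both 0.940) for Meis1, Dcx (0.913) and Krt15 (0.858) for Meis2, and Mettl23 (0.842) for Nr2f2. Nr2f1 had 1 UMI in these clusters and still reached r = 0.960 with Pom121. This is above the values given here for Meis1, Meis2 and Nr2f2. An r of this size can therefore arise from almost no counts, and no pattern is read from the values of r over these clusters. Over the 12 classes Nr2f1 had 86.0 to 260.4 CPM at E11.5 and at most 2.46 CPM later, so its r there largely sets E11.5 against the later stages. Within E11.5 mesenchyme, Cited1 was a leading gene of cluster 3, where Nr2f1 had 109 CPM against 403 CPM in cluster 1.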

How the data were processed

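Single-cell RNA was captured with 10x Chromium 3′ chemistry, and the authors deposited 1 table of raw UMI counts for each of the 3 stages. The submitters' processing notes name Cell Ranger 4.0.0 and the mm10 build. Cells entered with 700 or more genes and mitochondrial counts up to 20% (864 to 123785 UMIs per cell). Each stage was normalised with sctransform 0.4.2 and clustered in Seurat 5.3.0 (R 4.3.3) with 2000 variable genes, leaving out the members and their paralogues, 20 principal components and a Leiden resolution of 0.4. Scrublet in scanpy 1.11.5 called 0, 0 and 2 doublets, which does not amount to a working call, and no cells were removed by it. Clusters were named from 10 lists of markers, by a scoring rule set after the data were seen. Members' counts were summed per class, with exact Poisson intervals for levels and Clopper-Pearson intervals for shares (scipy 1.17.1). The interval of a ratio came from the exact binomial interval of how its counts were split between both groups. A count of 0 was given a limit of 3 counts. The genes named are the members, their paralogues, 6 gene lists and, for each member, up to 3 genes of highest r. Other genes named are leading genes of clusters, genes overlapping a member, Ddx3y and the marker Twist1. Every gene found in at least 20 cells was set beside each member to give the background of co-detection. The members and lists were chosen with earlier results of these data known. The ratio step was tested on simulated data. Alternatives were other cell filters, cluster resolutions, variable genes, depths, averages and added values. Some listed genes are not reported here.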

Additional observations from a re-analysis of the deposited data

How the results depend on the processing

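No paired analysis was possible because each table pools the samples of a stage and its barcodes cannot be assigned to samples, and for the same reason samples could not be left out in turn. The 12 log2 ratios past 2-fold kept their direction and stayed past 2-fold in all 116 alternative values, over other cell filters, cluster resolutions, variable genes, thinning, averaging, doublet scores and the CPM added. Another thinning draw and the removal of the globin-led clusters of E16.5 epithelium and E11.5 mesenchyme were chosen after seeing the data. Cluster 2 of E14.5 epithelium, led by mitochondrial and globin genes, was not removed in any alternative. It held 171 of the 399 Meis1 UMIs and 406 of the 957 Nr2f2 UMIs of that class.

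With 1 CPM added in place of 10, ratios of mesenchyme over epithelium were -3.38 for Meis1, -2.10 for Meis2 and -4.56 for Nr2f2 at E14.5, and -3.72 for Meis1 and -4.37 for Nr2f2 at E16.5. Those of E14.5 over E11.5 mesenchyme were -2.61 for Meis1, -4.11 for Meis2, -1.53 for Pbx3, -7.50 for Nr2f1 and -5.32 for Nr2f2, and Meis2 of E16.5 over E14.5 was -3.17 in mesenchyme and -3.53 in epithelium. Ratios under 2-fold with 10 CPM that passed it with 1 CPM were Meis2 of mesenchyme over epithelium at E16.5 (-1.74), Meis1 of E16.5 over E14.5 mesenchyme (-1.27) and Pbx2 of E14.5 over E11.5 mesenchyme (-1.04), and also Nr2f1 of mesenchyme over epithelium at E16.5 (1.09), with under 50 UMIs. A smaller added value enlarges ratios of low genes by its construction. After thinning, mesenchyme over epithelium was -1.75 for Meis1 at E14.5, and -1.41 for Meis1 and -3.64 for Nr2f2 at E16.5. Thinned stage ratios in mesenchyme were -3.51 for Meis2 and -4.61 for Nr2f1 from E11.5 to E14.5 and -1.52 for Meis2 to E16.5, and -2.34 for Meis2 in epithelium. With every cell weighted alike, mesenchyme over epithelium was -1.98 for Meis1 and -1.45 for Meis2 at E14.5 and -1.55 for Meis1 at E16.5, and Meis2 in mesenchyme was -3.45 and -1.62 in the successive stage steps. Nr2f2 at E16.5 was -3.19 both with at least 200 genes and no mitochondrial limit and at a Leiden resolution of 0.2. The cause of these shifts was not tested.

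Co-detection depended on depth. It is given here as log2 odds ratios, first thinned and then in another draw. At E14.5 they were 0.58 and 0.25 for Meis1 with Meis2 (1.28 as deposited), and -1.75 and -2.21 for Meis1 with Nr2f2 (0.20). The sign also changed for Meis1 with Pbx3, at -2.54 and -0.083 (1.33), and for Meis2 with Nr2f2, at -0.79 and -0.25 (0.79). For these last pairs the intervals of the thinned shares overlapped. Pbx3 was found in 0 of 62 thinned Meis1 cells, against 4.38% of the others. Pbx2 with Nr2f2 was -0.089 after thinning (1.59). At E16.5 the values were -1.12 and -0.92 for Meis1 with Meis2 (0.73), and 0.65 and 0.67 for Meis2 with Nr2f2 (2.08). The sign also changed for Pbx2 with Pbx3, at -0.16 and -0.82 (1.39), and for Pbx2 with Nr2f2, at -0.31 and -0.054 (0.96). The intervals of the thinned shares overlapped for these last pairs too. Meis2 with Pbx3 was -1.44 after thinning (1.34), with Pbx3 in 0 of 28 thinned Meis2 cells against 4.52% of the others. The first thinned value for Meis1 with Meis2 likewise rested on 0 of 59 Meis1 cells, against 1.77% of the others. The intervals of the thinned shares overlapped for both. Meis1 with Nr2f2 was -1.12 in the other draw and 0.60 with at least 200 genes (-0.08). Meis2 with Nr2f2 was 3.64 where 2 or more UMIs of Meis2 were asked for.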

Other observations

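Thinned to 2000 UMIs, 60.0% of E14.5 epithelial cells had no UMI of any of the 6 members, 33.7% had a UMI of 1 member and 5.97% of 2. In E16.5 epithelium these shares were 65.5%, 30.6% and 3.59%. In E11.5 mesenchyme they were 23.4%, 37.2% and 25.6%. Mesenchyme of the later stages had no UMI of any member in 85.2% (E14.5) and 90.2% (E16.5) of cells, and a UMI of 1 member in 13.6% and 9.57%.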
